A study of Mus musculus with 3 samples.

Results

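The AP-1 genes described here are the 8 genes Fos, Fosb, Fosl2, Jun, Junb, Jund, Batf and Atf3, taken by name from the gene expression tables, and they are 8 of the 25759 genes listed in each table. All 8 had reads in each of the 3 libraries. The study sorted follicular regulatory T cells (TFR cells), which restrain germinal center reactions, and asked which of their transcripts depend on the transcription factor NFATc1 and on Blimp-1, the repressor encoded by Prdm1. The cells were B220-CD4+BlimpGFP+CXCR5+GITRhi cells of spleen and mLN. They came from mice given 125 µg NP-KLH in alum, boosted on day 7 and analysed on day 10. The library labelled N came from NFATc1-deficient TFR cells (Nfatc1fl/fl.Prdm1gfp/+.FIC). The library labelled αA came from cells that overexpress constitutively active NFATc1/αA (Nfatc1caaA. Prdm1gfp/+.FIC), and the library labelled PαA from cells that overexpress it and lack Blimp-1 (Nfatc1caaA.Prdm1gfp/fl.FIC). All 3 genotypes carried 1 gfp allele of Prdm1, so 1 copy held the gfp reporter in N and αA too, and all carried FIC (Foxp3-IRES-Cre), which limits the deletions and the transgene to cells that express Foxp3 or once did. The mice were male or female on a C57BL/6J background, and neither their age nor how many went into a library is given in the sources used here. There was no library of unmodified TFR cells.

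Each genotype is represented by 1 library, so no difference has a replicate check and no test was run. The libraries N, αA and PαA held 29726219, 27239921 and 25465829 reads. Levels are given as RPKM, exon reads per kilobase divided by the size of the library, and differences as log2 ratios of RPKM with 95% Clopper-Pearson intervals on the reads. PCR reads without molecular identifiers are not independent molecules, so these intervals hold no more than counting error and set library against library, not genotype against genotype. The targeted genes did not all follow the labels. Nfatc1 stood at 63.6 RPKM in N, 62.9 in αA and 32.4 in PαA, so the library labelled NFATc1-deficient was level with the library labelled as overexpressing. With TMM factors it was slightly lower, at 58.1 against 64.3, so the direction rests on the scaling, but the levels were close with both. These are reads over the whole gene, and which exons they covered was not analysed here. Prdm1 was at 25.6 RPKM in N, 24.9 in αA and 10.0 in PαA, lowest in the library labelled Blimp-1-deficient. N, αA and PαA therefore stand for the labels of the libraries throughout.

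AP-1 is a dimer of basic leucine zipper (bZIP) proteins. Jun proteins pair with each other or with Fos proteins, Fos proteins need a Jun partner, and both are fed by the MAP kinase cascades that T-cell receptor and costimulation set off. In T cells NFAT and AP-1 bind side by side on composite elements, for example in cytokine genes, and NFAT without AP-1 is linked to a programme of unresponsiveness. Batf has no transactivation domain of its own, takes the place of Fos in dimers with Jun proteins and works with IRF4 or IRF8. Many of these genes are immediate-early genes, with short-lived transcripts that appear within minutes of a stimulus, also during tissue handling.

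Jund, Junb and Batf made up nearly all of the measured AP-1 transcripts. Jund was at 355 RPKM in N, 261 in αA and 212 in PαA, Junb at 207, 169 and 121, and Batf at 141, 131 and 135. Jun and Fos lay between 5 and 10 RPKM, Fosl2 at 5.04 in αA and lower in the other 2 libraries, and Fosb and Atf3 below it. Both Jund and Junb were highest in N and lowest in PαA, whereas the 3 values of Batf lay close together. Among all genes with reads, Jund ranked 183 in N and 306 in PαA by level, Junb 309 and 495, and Batf 431 and 455.

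**Figure D1:**
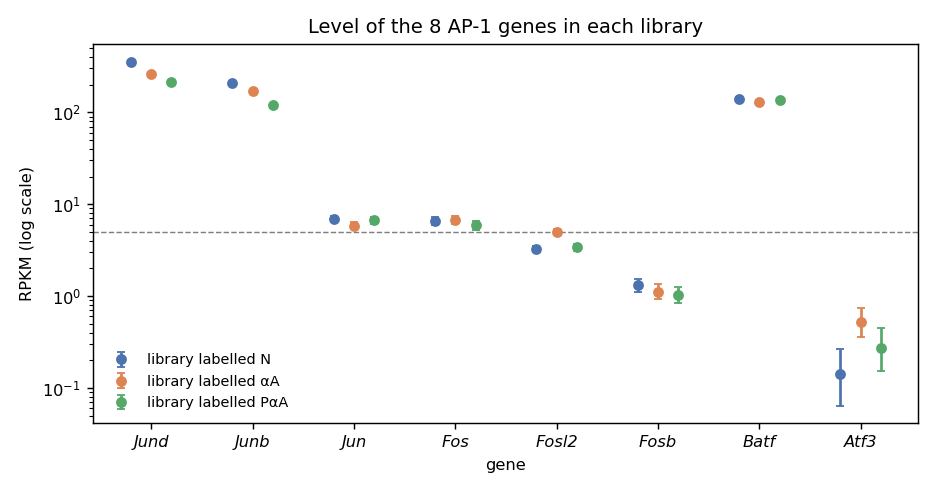
RPKM (log axis) of the 8 AP-1 genes in the libraries labelled N, αA and PαA, with 95% Poisson intervals on the reads as bars, and the level of 5 RPKM as a dashed line. Jund, Junb and Batf lie above 100 RPKM in all 3 libraries, Jun and Fos between 5 and 10, and the other 3 genes lower.

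In none of the comparisons did an AP-1 gene pass the filter used here, which asks for more than 5 RPKM in either library of a pair and for a difference of more than 2-fold. It is modelled on the filter of the study, which took an expression value above 5 in any of its groups, so the genes that pass can differ. Between αA and N, 6 of the 8 reached the level and 0 passed, while 4.02% of the 6887 genes tested passed. Between PαA and αA, again 6 reached it and 0 passed, against 4.29% of 6530 genes. PαA against N, which is not a comparison the study made and which shares its libraries with the others, had 5 at the level and 0 that passed, against 10.4% of 6940 genes. With a lower bar of 1.5-fold, Fosl2 passed in αA against N (background 13.7%), 0 genes in PαA against αA (14.3%), and Junb and Jund in PαA against N (28.1%). With TMM factors the ratios of Junb (-0.54) and Jund (-0.51) in PαA against N were within 1.5-fold, where 23.8% of all genes passed. These counts are near what backgrounds of this size give, and nothing particular to the 8 genes is read from them. The median gene was not at 0 in these comparisons. Over the genes tested, the median log2 ratio of RPKM was -0.14 in αA against N, -0.05 in PαA against αA and -0.19 in PαA against N. With TMM factors, which rescale the libraries so that most genes do not differ, these medians were 0.02, 0.02 and 0.04. The median over the 8 AP-1 genes was -0.17, -0.24 and -0.11 with RPKM, and -0.01, -0.17 and 0.11 with TMM factors, so that in PαA against N its sign turned with the scaling.

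**Figure D2:**
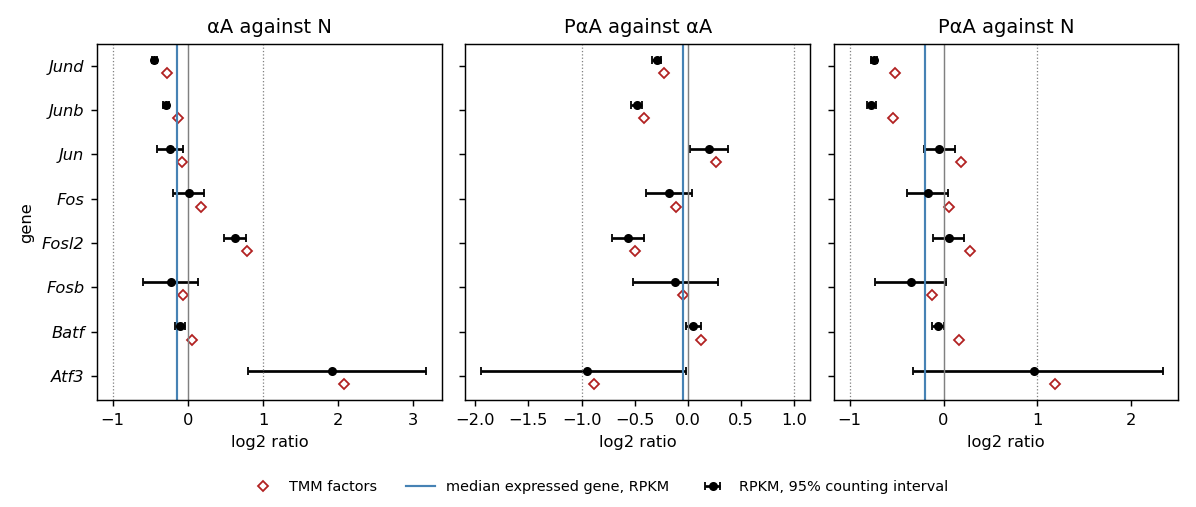
Log2 ratios of the 8 AP-1 genes in the 3 comparisons of libraries, as RPKM ratios with 95% counting intervals (black) and with TMM factors (red diamonds). The blue line is the median of the genes tested and dotted lines mark 2-fold. Jund and Junb lie left of the blue line in each panel with RPKM, and left of 0 with both scalings, while Batf lies within 0.2 of 0 in all of them and changes side between RPKM and TMM factors in the comparisons with N.

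The promoter sequences of a few members are shown because the bases just before the start site are where stimulus-responsive factors, AP-1 among them, act on the immediate-early members of the family. The search covered the RefSeq window (GRCm38.p6) from 250 bases before to 50 after the start. The motifs were TGACGTCA (CRE), TGANTCA (TRE, the AP-1 site), TGACATCA (the Jun-type TRE), GGAAA (NFAT core) and the CArG box, the site of serum response factor, on both strands. All 8 genes had such a window. The window start of Fos, Jun, Fosb and Junb lay within 50 bases of the start in the files and that of Batf 51 bases away. For Fosl2, Jund and Atf3 it lay 671, 1210 and 34706 bases away, so their windows need not be the promoters in use. Of the 8 full windows, those of Jun and Batf held a match. The promoter of Jun (chr4:95052223-95052372, minus strand), which encodes the classical Jun partner, has a Jun-type TRE from base -45 to -38 and an NFAT core from -59 to -55, both in capitals. That of Batf (chr12:85686570-85686668, plus strand, cut where the gene begins in the files) has the NFAT core on the other strand, read as TTTCC and in capitals, from -141 to -137 and from -93 to -89. The Junb stretch (chr8:84978749-84978898, minus strand) is given beside them because Junb was among the members that were lower in PαA, and it has no match. All are written 5′ to 3′ on the strand of the gene.
Jun: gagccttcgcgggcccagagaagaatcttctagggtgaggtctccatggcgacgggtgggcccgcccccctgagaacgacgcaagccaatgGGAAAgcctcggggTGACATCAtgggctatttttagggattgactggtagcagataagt
Batf: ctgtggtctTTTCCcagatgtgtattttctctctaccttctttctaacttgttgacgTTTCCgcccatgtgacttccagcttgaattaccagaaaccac
Junb: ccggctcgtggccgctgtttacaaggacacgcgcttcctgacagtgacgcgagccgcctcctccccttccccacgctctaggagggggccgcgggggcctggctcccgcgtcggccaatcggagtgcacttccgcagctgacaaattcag
The Jun-type TRE occurs in 3.62% of the 32851 windows and the NFAT core in 61.3%, so that the NFAT matches are common. CRE, TRE and CArG box occur in 1.79%, 7.81% and 1.63% of windows and in none of the 8 full windows, of which the lines above show a part. A match describes letters and not binding, and the lack of one holds for this window only.

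Jun proteins come first, as the partners that every Fos and Batf dimer needs. Gene positions are those of the files, on GRCm38. Jund (chr8:70698949-70700616, plus strand, a single exon) encodes JunD, the member that is present also in resting cells. Its exons took 17589 reads (N), 11837 (αA) and 9021 (PαA), and between 97.2% and 98.0% of them were unique. N was the highest and PαA the lowest library. The log2 ratio was -0.45 (-0.48 to -0.41) in αA against N and -0.29 (-0.33 to -0.26) in PαA against αA. With TMM factors these were -0.28 and -0.23, in the same direction. Against N, the PαA level of Jund was 1.67-fold lower, a log2 ratio of -0.74, or -0.51 with TMM factors.

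Junb (chr8:84974484-84978718, minus strand) encodes JunB, which joins Batf on T-cell genes. Its exon reads numbered 11110 in N, 8346 in αA and 5582 in PαA, in the same order as those of Jund. The log2 ratio was -0.29 (-0.33 to -0.25) in αA against N, 0.15 below the median gene, and came to -0.13 with TMM factors. Between αA and PαA the difference was larger, at -0.48 (-0.53 to -0.43), or -0.42 with TMM factors. Set against N, PαA was 1.71-fold lower, with a log2 ratio of -0.77 (-0.82 to -0.72) and of -0.54 with TMM factors. The last 351 bases of the Junb region overlap Prdx2, a gene on the opposite strand, and reads were not analysed by strand here. Prdx2 had 5510, 4830 and 4960 reads in N, αA and PαA. Reads in the part of the Junb region outside its exon numbered 3, 57 and 8, which is at most 0.509% of the exon density.

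Jun (chr4:95049034-95052222, minus strand, a single exon), which encodes c-Jun, the target of the Jun N-terminal kinases, stood far below both. It had 651, 505 and 541 reads, or 6.87, 5.81 and 6.66 RPKM, in N, αA and PαA. The lowest library was αA. The log2 ratio was -0.24 (-0.41 to -0.07) in αA against N and 0.20 (0.02 to 0.37) in PαA against αA. The ratio of PαA to N was -0.04 with RPKM and 0.19 with TMM factors, a sign that turned with the scaling. Junb was at 30.1 times the level of Jun in N, 29.1 times in αA and 18.2 times in PαA.

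Of the Fos proteins, which depend on a Jun partner, Fos and Fosb are the rapidly induced ones and Fosl2 (Fra-2) the more lasting one. Fos (chr12:85473890-85477273, plus strand) had 415, 383 and 316 exon reads, or 6.62, 6.67 and 5.89 RPKM, in N, αA and PαA. N and αA were level and PαA slightly lower. The log2 ratio was 0.01 (-0.19 to 0.21) in αA against N, and turned to -0.02 with TPM. The step from αA to PαA was -0.18 (-0.40 to 0.04), an interval that includes 0. Fosb (chr7:19302696-19310051, minus strand) had 147, 115 and 99 reads, or 1.31, 1.12 and 1.03 RPKM. Its intervals in αA against N (-0.59 to 0.13) and in PαA against αA (-0.52 to 0.28) both included 0, so no difference was detectable at this depth.

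Fosl2 (chr5:32135801-32157842, plus strand) had the largest difference between αA and N among the members other than Atf3. It had 636, 897 and 567 reads, or 3.27, 5.04 and 3.41 RPKM, in N, αA and PαA. The αA library was high and the other 2 lay close together. The log2 ratio was 0.62 (0.47 to 0.77) in αA against N, which is 1.54-fold, and -0.56 (-0.72 to -0.41) in PαA against αA. TMM factors gave 0.78 and -0.50. Across PαA and N the ratio was 0.06 with RPKM, 0.29 with TMM factors and -0.14 with TPM. Fosl2 passed the level of 5 RPKM through αA, where it stood at 5.04, with a counting interval from 4.71 to 5.38.

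Batf (chr12:85686669-85709087, plus strand), needed in T cells for TFH and Th17 programmes, was the most even of the abundant members. Its exons took 4008, 3402 and 3295 reads in N, αA and PαA, and the levels ran from 131 to 141 RPKM. The log2 ratio of RPKM was -0.11 (-0.18 to -0.04) in αA against N and 0.05 with TMM factors. Between αA and PαA it was 0.05 (-0.02 to 0.12) with RPKM and -0.11 with TPM. The sign of both turned with the scaling. Its exon-exon junction reads, which come from spliced transcripts, numbered 543, 424 and 501.

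Atf3 (chr1:191170296-191218039, minus strand), a stress-induced bZIP factor that can pair with Jun proteins, was close to absent. There were 9, 31 and 15 reads, or 0.141, 0.528 and 0.273 RPKM, in N, αA and PαA. The highest library was αA. The log2 ratio was 1.91 in αA against N, with a wide interval from 0.80 to 3.17, and -0.95 (-1.95 to -0.02) in PαA against αA. Its intron reads numbered 3, 41 and 9 in the same libraries. The intron level of genes with at most 3 exon reads, a measure of unspliced or genomic background, was 0.00574 RPKM in N, 0.0204 in αA and 0.00929 in PαA, also highest in αA. The intron level of Atf3 in αA was 0.0330 RPKM, and the part of this background in the Atf3 result was not tested.

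The make-up of the summed AP-1 level differed between the libraries. The summed RPKM of the 8 genes was 721 in N, 580 in αA and 486 in PαA, and 659, 592 and 521 with TMM factors, in the same order. Jund, Junb and Batf together took 97.5%, 96.7% and 96.5% of it. In N, αA and PαA, Jund took 49.2%, 44.9% and 43.7%, Junb 28.7%, 29.2% and 24.9%, and Batf 19.6%, 22.6% and 27.9%. The Junb share was thus highest in αA. As the shares are within a library, they do not depend on the library scaling. Batf was below Junb in N and αA, at 0.683 and 0.772 times its level, and above it in PαA, at 1.12 times. The summed level of the Jun family was 50.7 times that of the Fos family in N, 34.0 times in αA and 33.0 times in PαA. In the order of levels, neighbours were apart beyond their counting intervals except for Jun and Fos in all 3 libraries and Jun and Fosl2 in αA.

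**Figure D3:**
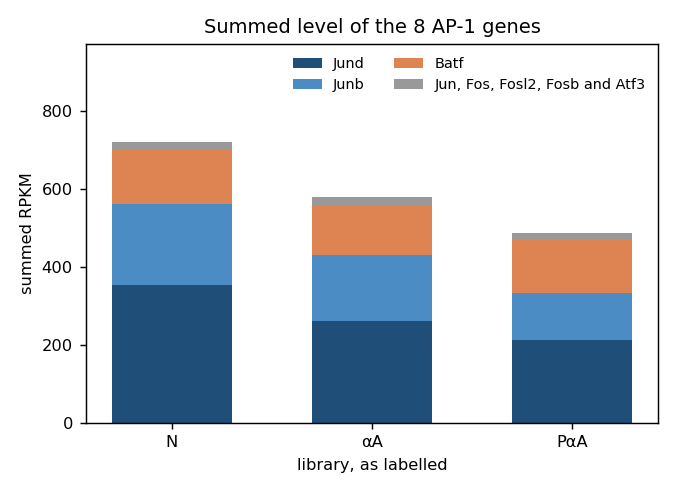
Summed RPKM of the 8 AP-1 genes in each library, stacked by gene, with Jun, Fos, Fosl2, Fosb and Atf3 as 1 block. The Jund and Junb parts are smaller in αA than in N and smaller again in PαA, also with TMM factors, while Batf stays between 131 and 141 RPKM.

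Reads on introns are a second readout of these genes, as they come from unspliced transcripts or from genomic background. For Fos they were a large part of the signal. Fos had 80, 40 and 41 intron reads in N, αA and PαA, so the intron density was 31.8%, 17.3% and 21.4% of the exon density. N was the highest library although the exon levels of N and αA were level. The log2 ratio of the intron level was -0.87 (-1.46 to -0.31) in αA against N and 0.13 (-0.53 to 0.80) in PαA against αA. Junction reads of Fos ran the other way, with 10, 21 and 25. Fosb had 21, 6 and 14 intron reads, and 14, 14 and 0 junction reads. Batf had 339, 270 and 174 intron reads, at most 0.376% of its exon density, and PαA was the lowest library, at -0.54 (-0.82 to -0.26) against αA, although its exon level was not lower there. Fosl2 had 18, 20 and 22 intron reads, and Jun and Jund have no intron. Across all genes, introns took 3.62%, 5.30% and 3.91% of gene reads in N, αA and PαA.

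**Figure D4:**
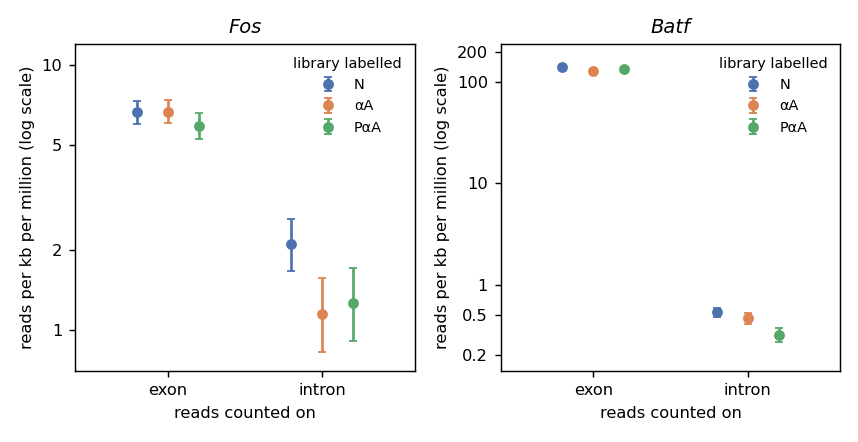
Exon and intron reads of Fos and Batf scaled to length and library total (log axes of different range) in the 3 libraries, with 95% Poisson intervals. The Fos exon points of N and αA lie together while the intron point of N, from 80 reads, lies above those from 40 and 41 reads, and for Batf the intron point of PαA, from 174 reads, is the lowest.

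The direct partners of the AP-1 dimers outside the family are NFAT and, for Batf, IRF4 and IRF8. Of the 5 NFAT genes 3 were expressed above 5 RPKM and 0 passed the filter in any comparison. Nfatc2 was at 13.7, 11.8 and 8.64 RPKM and Nfatc3 at 43.1, 38.2 and 30.6 in N, αA and PαA, the lowest each time in PαA. The median log2 ratio of the 3, Nfatc1 included, was -0.44 in PαA against αA, where the 6409 genes with a mean above 5 RPKM had -0.05. The T-cell and TFR markers had a median of -0.46 there, with 15 of 15 below 0, beside 56.2% of the 6409 genes. These 15 include Prdm1, the deleted gene. The part of the markers in the NFAT levels was not tested. Irf4 was at 20.5, 17.9 and 12.3 RPKM and Irf8 at 14.4, 16.0 and 12.2, and neither passed. Only 17.9% of the Irf8 reads in N were unique, which makes its level uncertain. Since Batf did not follow Irf4, the ratio of their levels was 6.88 in N, 7.32 in αA and 11.0 in PαA.

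The counts of the gene lists that follow stand beside 4.02% of all genes tested that passed in αA against N, 4.29% in PαA against αA and 10.4% in PαA against N. Their medians stand beside -0.12, -0.05 and -0.17 over all genes with a mean above 5 RPKM. Few of the other bZIP factors passed. Between αA and N, 1 of 22 expressed genes passed, Hlf (lower), with a median of -0.18 over the list against -0.12 over all expressed genes. Between PαA and αA, 2 of 21 passed, Hlf (higher) and Cebpa (lower), with a median of -0.16. Hlf crossed 5 RPKM only slightly, at 5.13 in N and 5.10 in PαA. With TMM factors Hlf was at 4.69 RPKM in N and 2.13 in αA, and no longer passed in αA against N. It stood at 5.46 in PαA and still passed against αA. Cebpa, better known from myeloid cells, was at 24.7 RPKM in N, 21.6 in αA and 7.81 in PαA. Lower in PαA than in N were Maf, a T follicular and IL-10 factor, at 105, 84.5 and 43.3 RPKM, and Atf4, a factor of the amino acid and stress response, at 37.3, 20.4 and 17.7 (N, αA, PαA). Cebpa passed there too, and the other 19 of the 22 did not. With TMM factors the Atf4 ratio in PαA against N was -0.85 and no longer past 2-fold.

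Upstream of AP-1, the kinases of the MAP kinase cascade passed at shares near those of all genes. Between αA and N, 1 of 30 expressed genes passed, Map3k14 (5.66, 2.13 and 1.75 RPKM in N, αA and PαA), the NF-κB-inducing kinase, which feeds the alternative NF-κB pathway. Of 29 compared between PαA and αA, 1 passed, Map3k4, at 7.32, 6.03 and 2.49 RPKM. Both were lower in the first-named library. The medians were -0.14 and -0.20, against -0.12 and -0.05 over all expressed genes. PαA against N had 4 of 29, all lower, with Map3k1 and Rasgrp1 beside these, and with TMM factors the ratios of Map3k1 (-0.83) and Rasgrp1 (-0.81) were within 2-fold. Rps6ka1, the most abundant of the list, was at 80.6, 66.7 and 57.6 RPKM. A list of MAP kinase phosphatases, feedback inhibitors and Gadd45 genes had a median of 0.17 in αA against N. This was above 0 although the gene that passed was lower. The median was -0.18 in PαA against αA and -0.14 in PαA against N, the latter 0.09 with TMM factors. Gadd45b, which binds kinases upstream of p38 and JNK, was at 51.9 RPKM in N, 17.0 in αA and 15.2 in PαA. It was the 1 of 12 expressed genes of this list that passed in αA against N. The phosphatase genes Dusp1 (44.6, 58.6 and 20.5 RPKM) and Dusp6 (18.9, 28.4 and 13.8) and the inhibitor Spry1 (6.47, 8.53 and 3.26) were highest in αA and lowest in PαA. These 3 of 11 passed in PαA against αA, where 4.29% of all genes did, with log2 ratios of -1.51, -1.04 and -1.39, and Dusp6 came to -0.97 with TMM factors. Against N, Gadd45b and Dusp1 passed in PαA, and Dusp1 came to -0.89 with TMM factors. Dusp2, the most abundant of the list, was at 57.3, 86.1 and 75.6 RPKM. Genes that regulate AP-1 or its turnover gave 0 of 12 in both of the study's comparisons, with medians of -0.18 and -0.29. The most abundant, Zfp36l2, was at 172, 155 and 124 RPKM. PαA against N had 1 of 12. Zfp36l1, which destabilises AU-rich transcripts, was lower in PαA (143, 110 and 69.2 RPKM in N, αA and PαA) and came to -0.81 with TMM factors.

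Among the other immediate-early genes some differed by more between PαA and αA than Fos and Jun did. In αA against N, 1 of 26 expressed genes passed, Arc (6.53, 1.85 and 2.65 RPKM in N, αA and PαA). For PαA against αA, 5 of 25 passed, beside 4.29% of all genes. Egr1 (30.2, 33.4 and 12.9 RPKM), Egr2 (21.7, 15.5 and 6.11) and Nr4a3 (11.4, 6.79 and 2.68), which are induced by T-cell receptor signals, were lower in PαA. Klf2, a factor of resting and recirculating T cells, was at 54.3, 56.0 and 178 RPKM, and Rgs2 at 7.96, 4.33 and 9.06, both higher in PαA. The log2 ratio in PαA against αA was -1.37 for Egr1 and -1.34 for Egr2, compared with -0.18 for Fos and -0.12 for Fosb. The medians over the list were -0.26 and -0.32, against -0.12 and -0.05 over all expressed genes. Btg1, the most abundant, was at 246, 260 and 175 RPKM. For PαA against N, 8 of 26 passed (all genes 10.4%), 1 higher (Klf2) and 7 lower, among them Nr4a1 (39.6, 21.3 and 14.2 RPKM) and Rgs1 (24.1, 13.0 and 8.12). With TMM factors Egr1 and Egr3 came to within 2-fold there, at -0.997 and -0.85. Heat shock and dissociation stress genes gave 1 of 16 in αA against N, Hspb1, at 4.34, 15.4 and 4.76 RPKM, which was also the 1 of 15 in PαA against αA, and 1 of 14 in PαA against N, Hspa1a (6.59, 3.55 and 3.10 RPKM), which came to -0.86 with TMM factors. Only 51.9% of the Hspb1 reads and 13.6% of the Hspa1a reads in N were unique. The medians of -0.01, -0.15 and -0.10 became 0.15, -0.08 and 0.13 with TMM factors. Hspa8, the most abundant of them, was at 1553 RPKM in N, 1693 in αA and 1687 in PαA. The part of tissue handling in the levels of the AP-1 genes was not tested.

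**Figure D5:**
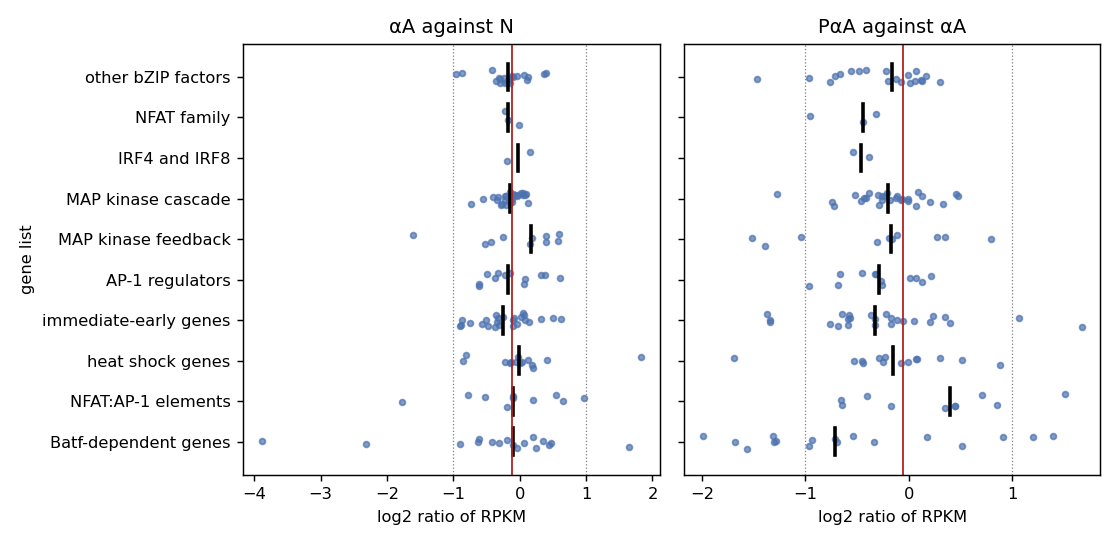
Log2 ratios of RPKM for the expressed genes (mean above 5 RPKM) of 10 gene lists, in PαA against αA (right panel) and αA against N (left panel), with the list median as a black bar, the median of all 6409 expressed genes as a red line and 2-fold as dotted lines. Points are spread vertically for sight only. The median of the NFAT:AP-1 element list lies at 0.40 and that of the Batf-dependent list at -0.72 in PαA against αA, with TMM factors at 0.47 and -0.65.

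Downstream, genes with known NFAT:AP-1 composite elements differed in both directions, with medians of -0.10, 0.40 and 0.03 in αA against N, PαA against αA and PαA against N, of which the first came to 0.06 with TMM factors. Between αA and N, 2 of 11 expressed genes passed (all genes 4.02%), and both were Th2 cytokine genes that were lower in αA. With TMM factors Xcl1, at 14.2 RPKM in N and 27.7 in αA, was also past 2-fold, and it was higher in αA. Il4 was at 8.69 RPKM in N, 2.54 in αA and 4.15 in PαA, and Il13 at 5.89, 2.32 and 1.69. Between PαA and αA, 1 of 9 passed (all genes 4.29%), Ccl3, a chemokine gene, at 25.8, 24.1 and 68.6 RPKM in N, αA and PαA. Between PαA and N, 6 of 11 passed (all genes 10.4%). Ccl3, Ccl4 (36.5, 53.5 and 96.7 RPKM) and Xcl1 (14.2, 27.7 and 37.7) were higher, while Il13, Il4 and Gzmb (48.2, 33.4 and 21.2) were lower. CD8 T and NK cells also express Ccl3, Ccl4 and Xcl1, and the markers of these cells were mixed there. Of the 4 expressed ones, Nkg7 (108, 252 and 401) and Klrb1c (2.92 in N, 5.90 in PαA) passed as higher. Cd8b1 was lower, at 9.07 RPKM in N and 5.24 in PαA, and Prf1 differed little, at 7.49 and 8.13. The part of such cells in the chemokine levels was not tested. With TMM factors Il4 and Gzmb were within 2-fold in that comparison, at -0.84 and -0.95.

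Of the genes described as Batf-dependent in T cells, 5 of 19 passed in αA against N, beside 4.02% of all genes, with Il10 higher and Klrg1, Il1rl1, Areg and Il17a lower. With TMM factors Il17a lay below 5 RPKM in N, αA and PαA (4.83, 1.76 and 0.898). It then passed in neither comparison with N. Between PαA and αA, where 4.29% of all genes passed, 8 of 17 genes of the list did, 2 higher (Klrg1 and Il1rl1) and 6 lower. The median was -0.72, against -0.05 over all expressed genes. The T-cell and TFR markers had a median of -0.46 there, or -0.39 with TMM factors. Of these markers 15 of 15 were below 0, beside 56.2% of all expressed genes. The lists are not separate, as Ctla4, Icos and Prdm1 are in both. Ctla4 and Prdm1 were also the only markers that passed there. The part of the markers in the result was not tested. Tigit, the most abundant, was at 526, 732 and 301 RPKM, and Ccr8 at 76.6, 71.7 and 28.9, both among the 6. Il10, encoding the suppressive cytokine, was at 22.1 RPKM in N, 69.4 in αA and 17.4 in PαA. Ctla4, encoding the inhibitory receptor, was at 148, 188 and 58.7, and Klrg1, a marker of terminal effector Tregs, at 172, 11.7 and 26.9. Prdm1, the deleted gene, is also in this list and among the 6. Between PαA and N, 9 of 19 passed (all genes 10.4%), 8 lower, among them Ctla4 and Klrg1, and 1 higher. Batf itself was at a log2 ratio of -0.11, 0.05 and -0.06 with RPKM in the 3 comparisons, with signs that turned with the scaling. These lists come from general knowledge and not from the study, and their counts rest on the same libraries as the counts of the AP-1 genes. They were chosen with earlier results of these data known. The Batf-dependent list holds Il10, Ctla4, Tigit and Klrg1, which the study reported as differing between these libraries. Its counts therefore partly restate that choice.

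The 2 genes whose ratios in both of the study's comparisons lay nearest to those of each AP-1 gene above 5 RPKM were sought among 6262 genes. They were Stim2, a calcium sensor upstream of NFAT, and Ptpn11 for Jund, and Nfkbie and Srsf4 for Junb. For Fosl2 they were Agfg1 and Akr1e1, for Jun Tspan31 and Taf1c, for Fos Lbr and Frmd8, and for Batf Lsm4 and Gpat4. With 3 libraries such likeness is common. Within a distance of 0.2 on the log2 scale lay 478 genes (7.63%) for Jund, 440 (7.03%) for Junb and 1244 (19.9%) for Batf, but 32 (0.511%) for Fosl2. The level of Agfg1 was 26.6 RPKM in N, 40.3 in αA and 26.3 in PαA.

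Transcripts that mark other cells differed between the libraries as well, as did the shares of ribosomal protein and mitochondrial genes. In bulk RNA of sorted cells, fewer cells of a type and less RNA per cell cannot be told apart. T-cell markers were high throughout, with Cd3e at 462, 518 and 377 RPKM in N, αA and PαA and Cd4 at 488, 396 and 341. The summed level of the 15 T-cell and TFR markers was 4642, 4771 and 3517 RPKM, with Cd3g the most abundant. Cxcr5 was at 48.3, 81.3 and 47.6 RPKM and Foxp3, which defines regulatory T cells, at 32.7, 20.9 and 15.3. Foxp3 was lowest in PαA, like Jund and Junb. As 66.6% of all genes tested were lower in PαA than in N, no link is read from this. In αA against N, 0 of 15 of these markers passed, in PαA against αA 2, and in PαA against N 5, all lower, of which Pdcd1, Foxp3 and Tnfrsf18 came to -0.99, -0.87 and -0.84 with TMM factors. Erythroid markers were higher in αA and PαA than in N, with 5 of 5 expressed genes past the filter in both comparisons and a summed level of 573, 2408 and 2156 RPKM, mainly Hba-a2 (244, 1070 and 883), of whose reads in N 6.22% were unique. Markers of CD8 T and NK cells summed to 133, 280 and 429 RPKM, mainly Nkg7 (108, 252 and 401), with Cd8a at 0.193, 2.10 and 2.90. Cd8b1 did not follow them, at 9.07, 12.03 and 5.24 RPKM, nor did Prf1, at 7.49, 6.54 and 8.13. Eomes, at 3.32, 0.910 and 3.02 RPKM, and Ncr1, at 0.262, 0.358 and 0.255, did not either. Klrb1c (2.92, 4.23 and 5.90) and Klrk1 (1.13, 1.65 and 2.89) rose from N to PαA. Nkg7 (higher) was the 1 of 3 expressed genes that passed in αA against N, Cd8b1 (lower) the 1 of 4 in PαA against αA, and 2 of 4, both higher, passed in PαA against N. Myeloid markers summed to 280, 176 and 244 RPKM, mainly Lyz2 (214, 134 and 184), with S100a9 at 0 reads in αA. The markers did not all go one way, with Adgre1 at 2.30, 5.32 and 4.93 RPKM, Csf1r at 6.25, 10.6 and 6.62 and Cd68 at 16.4, 19.5 and 18.0 in N, αA and PαA, but Fcgr3 at 4.46, 4.10 and 5.42 and Cd14 at 2.33, 1.31 and 0.799. Of the 7 expressed, 1 higher and 3 lower passed in αA against N, 2 higher in PαA against αA, and 1 lower in PαA against N. With TMM factors Adgre1 also passed in PαA against N, as higher, with 2.10 RPKM in N and 5.28 in PαA. B- and plasma-cell markers summed to 67.0, 75.1 and 117 RPKM, mainly Jchain (44.3, 58.4 and 94.8), whereas Cd79b stood at 11.5, 8.85 and 8.67, and 0 of 2, 1 of 3 (Sdc1) and 2 of 3 (Sdc1 and Jchain, both higher) expressed genes passed. Ribosomal protein genes took 13.6%, 15.4% and 19.8% of exon reads in N, αA and PαA, and mitochondrial genes 2.76%, 3.32% and 3.76%, in the inverse order of the Jund and Junb levels. The part of other cells and of these shares in the AP-1 levels was not tested.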

How the data were processed

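Poly(A) RNA of sorted TFR cells was sequenced in 3 libraries, 1 for each genotype, and groups were taken from the genotype labels. Per the study's methods and labels, reads were trimmed, aligned to GRCm38 and counted with CLC Genomics Workbench. The annotation release is not given in the sources used here. The authors deposited whole-number counts of exon, unique exon, junction and intron reads for each gene, with no normalization. The authors also deposited RPKM, exon reads scaled to exon length and to a library total, and TPM, both with decimal commas. The column called expression value holds the total exon reads. The filter of the study, an expression value above 5 and a difference of more than 2-fold, was read here as RPKM in either of the libraries compared, which is a choice. Of the 25759 genes, 3715 with an exon length of 0 were left out.

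RPKM was recomputed at full precision from exon reads, exon length and the library totals that the deposited RPKM values imply. Log2 ratios carry exact Clopper-Pearson 95% intervals and levels Poisson intervals, which cover counting error only. With 1 library per genotype no test was possible and no p-value is given. The filter and the intervals were tested on simulated data. TMM factors came from edgeR 4.0.16 in R 4.3.3 and were used for scaling only. Alternatives were TPM, TMM factors, median-of-ratios size factors, other RPKM and fold thresholds, pseudocounts of 1 and 0.1, and unique exon reads. Medians of gene lists used genes with a mean RPKM above 5. Genes could be named, and not all were, if they were the 8 AP-1 genes, the targeted genes, the genes of each of 15 lists that passed the filter (up to 5 in a comparison), the most abundant gene of a list, the 2 genes nearest to each AP-1 gene above 5 RPKM, and defining markers. Genes of the NFAT, IRF and cell-type lists were given also where they did not pass. The AP-1 genes and the lists were chosen with earlier results of these data known. Python 3.11.15, pandas 2.3.3, numpy 2.4.6, scipy 1.17.1 and matplotlib 3.10.9 were used. Promoter windows are those of RefSeq (GRCm38.p6). Proteins of the AP-1 genes were not analysed here. Some single genes are not reported here.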

Additional observations from a re-analysis of the deposited data

How the results depend on the processing

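Of the 24 ratios of single AP-1 genes (8 genes in 3 comparisons), 17 kept their sign under TPM, TMM factors, median-of-ratios factors, unique reads and both pseudocounts. Those of Jund, Junb, Fosb and Atf3 were among them in all 3 comparisons. The 7 that turned lay between -0.17 and 0.06 with RPKM, and turned under TPM, TMM or median-of-ratios factors. The number of AP-1 genes past the filter in αA against N was 0, but 1 with no minimum RPKM (Atf3, from 9 and 31 reads) and 1 at 1.5-fold (Fosl2), beside 13.7% of all genes at 1.5-fold. The share of all genes that pass with no minimum RPKM is not given here, so nothing is read from the Atf3 count. In PαA against N the number was 0, but 2 at 1.5-fold with RPKM (Junb and Jund), beside 28.1% of all genes. Both were within 1.5-fold with TMM or median-of-ratios factors. The median log2 ratio over the 8 genes in PαA against αA was -0.24 with RPKM and -0.40 with TPM. In PαA against N it was -0.11 with RPKM, -0.31 with TPM, 0.11 with TMM factors and 0.13 with median-of-ratios factors. Of 495 list counts recomputed under the alternatives, 354 stayed within 1.5 times. Of 405 list medians, which have no counting interval, 260 were counted as the same and 145 as moved. Of 144 ratios of single AP-1 genes, 36 moved outside their counting interval.

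With 1 library per genotype there was no replicate to leave out. No paired analysis was possible because each genotype has 1 library. Depth limits Atf3 and Fosb, whose intervals are wide, and the intron reads of Fosl2 and Fosb.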
